A study of Mus musculus with 4 samples.

Results

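The HoxA cluster is a row of homeobox genes on mouse chromosome 6, and 9 of them, Hoxa2, Hoxa3, Hoxa4, Hoxa5, Hoxa7, Hoxa9, Hoxa10, Hoxa11 and Hoxa13, were measured here. Every probe set that the platform annotation gave to exactly 1 of these symbols was taken, which made 12 probe sets of the 20393 with a single gene symbol and 9 genes of 12394. Hoxa3, Hoxa4 and Hoxa9 had 2 probe sets each and the other 6 genes had 1. The 9 genes run from anterior to posterior members of the cluster, so they are called the HoxA genes here. They were named for the comparison with earlier results of these arrays known.

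The arrays came from marrow of Mll-AF4stop knock-in mice, in which a stop element keeps an Mll-AF4 fusion silent until the recombinase Cre removes it. The Cre-GFP group (2 arrays) received a retrovirus with Cre and GFP, and the control group (2 arrays) the MIG-GFP retrovirus, which marks cells with GFP alone. Both groups carried the knock-in allele, came from marrow taken 5 days after the cytotoxic drug 5-FU, were sorted for GFP 2 days after infection, and were cultured for 14 days with cytokines for lymphoid progenitors. From each, 20 ng of total RNA was amplified. The sources used here do not state the age or strain background of the mice, how many were pooled, or the promoter that drives the construct. The design text names the control virus as one with Cre and the sample labels as one without. The labels were followed. Nothing says whether arrays of a group were separate mice or cultures, so a p-value here reflects no more than how far these arrays lie apart, and that spread may be technical.

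Hox proteins are transcription factors that bind DNA through a homeodomain, alone or together with the homeodomain proteins Meis and Pbx. The order of the genes along the chromosome matches the order of their use along the body axis. In blood, the genes from the middle of the HoxA cluster to Hoxa10 are active in stem and progenitor cells and are switched off as the cells mature. MLL (Kmt2a) is a histone methyltransferase that keeps them active, and its leukemic fusions are known for keeping them on.

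Across the cluster, the probe sets of the central genes read higher in Cre-GFP cultures, and those of the anterior genes differed by 0.20 or less on the log2 scale. Hoxa5 was 3.16-fold and Hoxa9 2.39-fold higher, Hoxa10 2.06-fold and Hoxa7 1.5-fold. Hoxa11 was 1.24-fold higher, Hoxa13 was lower, and the brighter probe sets of Hoxa3 and Hoxa4 differed by less than 0.05 on the log2 scale. In these bulk samples, fewer cells of a type and less RNA per cell cannot be told apart. Adjusted over all 20393 probe sets with limma, 0 of the 12 HoxA probe sets passed 0.05, and so did 0 of all probe sets (0%). At an unadjusted p under 0.05, 5 of the 12 were higher in Cre-GFP, against 2.36% of all probe sets, and 0 of the 12 were lower, against 2.42%. The 5 were those of Hoxa5, Hoxa7, Hoxa10 and Hoxa11 and the brighter one of Hoxa9. With single arrays left out, the lowest log2 differences were 1.55 for Hoxa5, 1.08 for the brighter Hoxa9 probe set and 0.64 for Hoxa10. They were 0.45 for Hoxa7 and 0.26 for Hoxa11. The probe sets of Hoxa7, Hoxa10 and Hoxa11 did not stay under an unadjusted p of 0.05 in every such limma fit.

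By another measure, 8 of the 12 read higher on both Cre-GFP arrays than on either control array, against 15.4% of all probe sets, and 1, that of Hoxa13, read lower on both, against 14.6%. The median log2 difference (Cre-GFP minus control) was 0.26 over the 12 and 0.0019 over all probe sets. With 2 arrays against 2, an exact permutation test cannot go below p = 0.333, so single values were not tested that way. The median 95% confidence interval over all probe sets reached 0.37 to either side. Levels below are log2 intensities and are not compared between probe sets, which differ in how brightly they read the same amount of RNA.

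**Figure D1:**
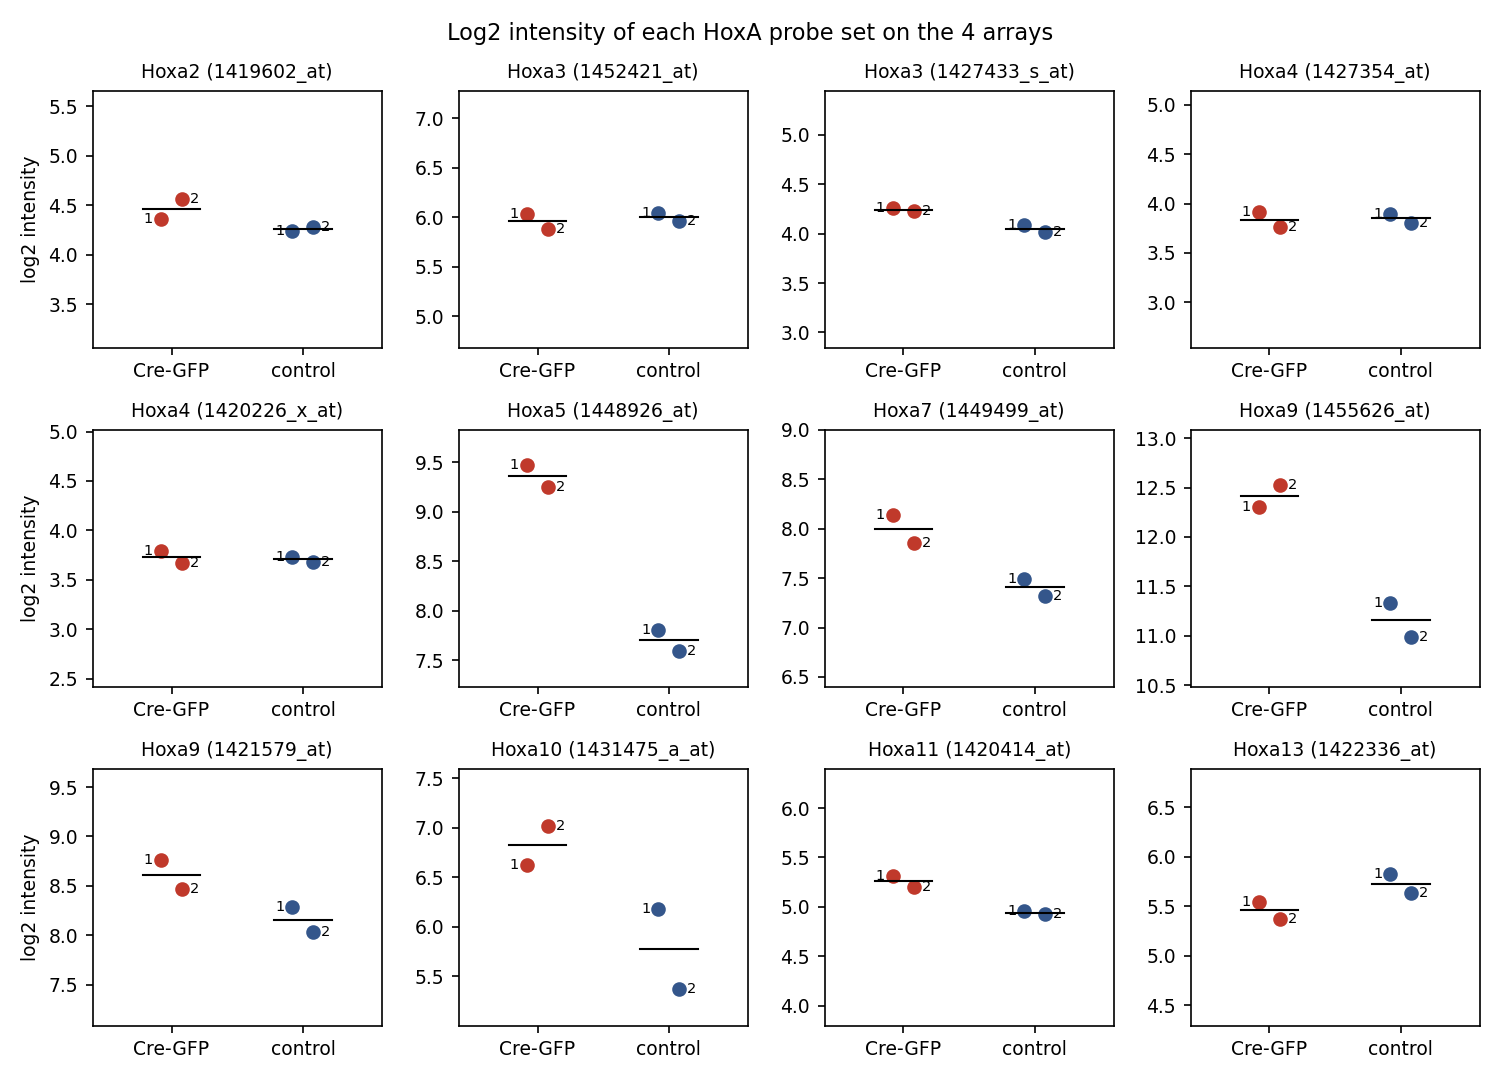
Log2 intensity (y axis) of the 12 HoxA probe sets on Cre-GFP arrays 1 and 2 and control arrays 1 and 2, with the group mean as a line; every panel spans the same range on the y axis. The groups are furthest apart for Hoxa5 and the brighter Hoxa9 probe set, and overlap for both Hoxa4 probe sets.

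Hoxa5 (probe set 1448926_at), best known for its part in lung and skeletal development and also expressed in blood progenitors, read 9.47 and 9.25 in Cre-GFP 1 and 2, against 7.81 and 7.59 in control 1 and 2. The lowest Cre-GFP array lay 1.44 above the highest control array. The means were 9.36 ± 0.16 in Cre-GFP and 7.70 ± 0.15 in control (SD, n = 2 each), where the median SD of all probe sets was 0.11 in each group. The log2 difference was 1.66 (95% confidence interval 1.22 to 2.10, limma adjusted p = 0.24). It ranked 10th of all probe sets by size and direction and 9th by p. When each array was left out in turn, the difference lay between 1.55 and 1.77.

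Hoxa9, the HoxA gene most closely tied to stem cell expansion and to MLL leukemia, read 12.31 and 12.52 in Cre-GFP 1 and 2 on its brighter probe set, 1455626_at, against 11.33 and 10.98 in control 1 and 2. The groups did not overlap, with a gap of 0.97. This probe set stood above the 95th percentile of every array, so Hoxa9 was read well above the dim range in both groups. The means were 12.41 ± 0.15 in Cre-GFP and 11.16 ± 0.25 in control (SD, n = 2 each). The log2 difference was 1.26 (0.82 to 1.69, adjusted p = 0.31), the 28th highest of all probe sets and 29th by p. It lay between 1.08 and 1.43 with single arrays left out.

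The 250 bases before the RefSeq start of Hoxa5 and of Hoxa9, which differed most, and of Hoxa13, which alone was lower on both Cre-GFP arrays, are shown in the gene's direction with each CpG in capitals. MLL has a CXXC domain that binds unmethylated CpG, which is why CpG was counted. The windows lie on the minus strand of GRCm38.p6 at chr6:52204588-52204837, chr6:52227371-52227620 and chr6:52260881-52261130, and the sequences are from RefSeq.
Hoxa5: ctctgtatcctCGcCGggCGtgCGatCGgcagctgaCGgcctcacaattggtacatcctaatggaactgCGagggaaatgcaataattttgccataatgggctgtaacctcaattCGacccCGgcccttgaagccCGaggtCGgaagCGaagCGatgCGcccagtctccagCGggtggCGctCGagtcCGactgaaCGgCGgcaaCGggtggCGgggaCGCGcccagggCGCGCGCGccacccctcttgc
Hoxa9: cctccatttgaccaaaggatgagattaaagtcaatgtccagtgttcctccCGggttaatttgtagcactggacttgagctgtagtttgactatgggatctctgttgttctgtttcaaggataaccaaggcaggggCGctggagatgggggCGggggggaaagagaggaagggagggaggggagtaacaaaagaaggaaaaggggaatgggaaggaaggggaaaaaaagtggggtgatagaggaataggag
Hoxa13: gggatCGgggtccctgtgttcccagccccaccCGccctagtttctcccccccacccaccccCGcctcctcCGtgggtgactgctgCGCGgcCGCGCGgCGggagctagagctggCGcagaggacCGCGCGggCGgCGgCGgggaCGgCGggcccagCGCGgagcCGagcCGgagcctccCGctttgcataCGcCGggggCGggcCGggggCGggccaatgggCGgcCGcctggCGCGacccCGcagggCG

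The windows differ in CpG and do not follow the order of the expression differences. Hoxa5 had 28 CpGs, Hoxa9 3 and Hoxa13 35, against a median of 6 over 32851 windows of the same length, of which 92.1% hold at least 1. Of all windows, 92.4% had fewer than Hoxa5, 29.0% fewer than Hoxa9 and 97.0% fewer than Hoxa13. Of the other members, Hoxa2 had 6, Hoxa3 18, Hoxa7 7 and Hoxa11 13, and Hoxa10 had 7 and 20 at its pair of starts. GC content ran from 46.4% for Hoxa2 to 80.0% for Hoxa13. In all 8 of the 9 genes matched a window in the table. These counts describe the letters of a short window and say nothing of methylation or of binding.

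Hoxa10 (probe set 1431475_a_at), a regulator of myeloid and lymphoid progenitor growth, read 6.63 and 7.02 in Cre-GFP 1 and 2, against 6.19 and 5.37 in control 1 and 2. The groups did not overlap, but the arrays lay further apart than for most probe sets. The SD was 0.28 in Cre-GFP and 0.57 in control, and the median SD of all probe sets was 0.11 in each group. The log2 difference was 1.04 (0.33 to 1.75, adjusted p = 0.78). It was 0.64 without control 2 and 1.45 without control 1.

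Hoxa7 (probe set 1449499_at), which neighbours Hoxa9 and is activated with it and Meis1 by retroviral insertion in mouse myeloid leukemia, read 8.14 and 7.86 in Cre-GFP 1 and 2, against 7.49 and 7.32 in control 1 and 2. The groups did not overlap, with a gap of 0.36. The means were 8.0 ± 0.20 in Cre-GFP and 7.41 ± 0.12 in control (SD, n = 2 each). The log2 difference was 0.59 (0.16 to 1.02, adjusted p = 0.85), and it lay between 0.45 and 0.73 with single arrays left out.

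Hoxa11 (probe set 1420414_at), known for patterning the forearm, kidney and uterus, read 5.31 and 5.20 in Cre-GFP 1 and 2, against 4.96 and 4.93 in control 1 and 2. The groups did not overlap and the arrays of each lay close together (SD 0.079 in Cre-GFP and 0.022 in control). The log2 difference was 0.32 (0.065 to 0.57, adjusted p = 0.93). The probe set stood between the 23.6th and 29.2nd percentile of the arrays. The Hoxa11 antisense transcript Hoxa11os read 4.98 and 5.12 in Cre-GFP 1 and 2, against 5.08 and 5.51 in control 1 and 2, and its groups overlapped.

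Hoxa13 (probe set 1422336_at), the most posterior gene, which shapes the digits and the urogenital tract, read 5.55 and 5.37 in Cre-GFP 1 and 2, against 5.82 and 5.63 in control 1 and 2. Both Cre-GFP arrays were lower than both control arrays. The log2 difference was -0.27 (-0.58 to 0.050, adjusted p = 1), or -0.17 without control 1, and 93.4% of all probe sets had a higher difference. The probe set lay between the 31.8th and 38.9th percentile of the arrays.

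**Figure D2:**
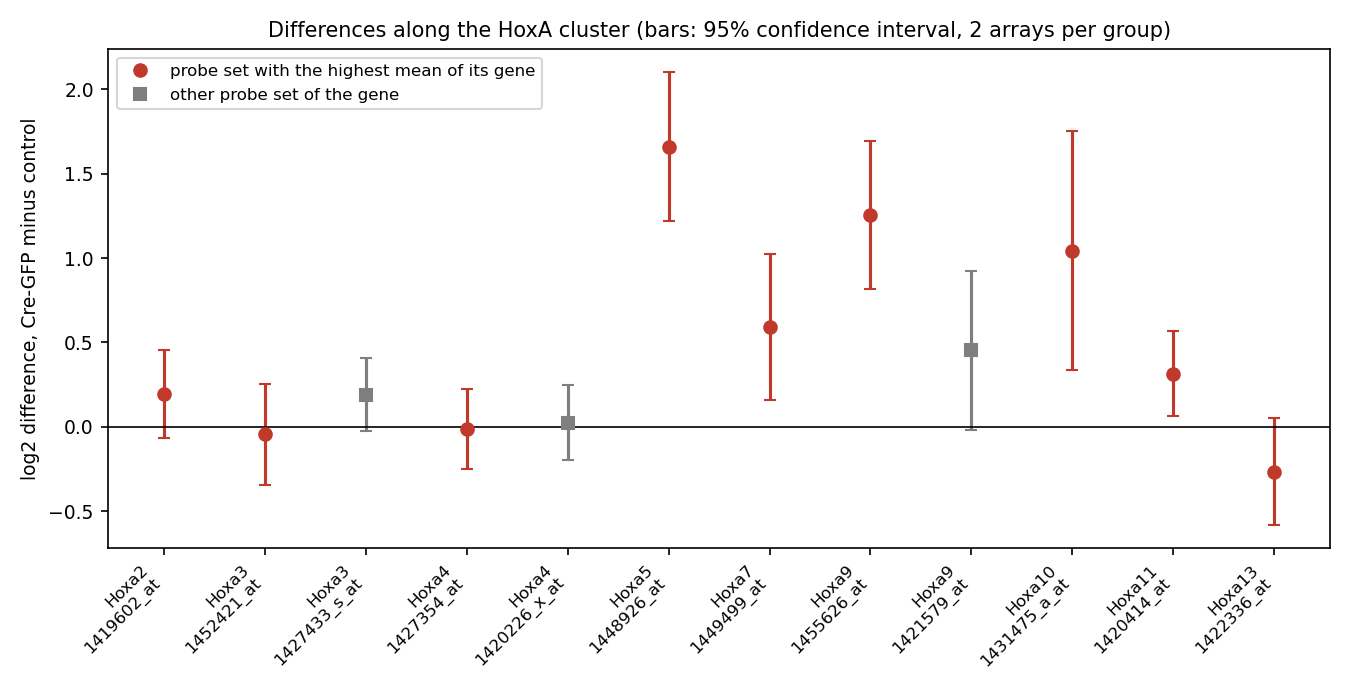
Log2 difference (Cre-GFP minus control, y axis) of the 12 HoxA probe sets in gene order, with 95% confidence intervals from limma. The intervals of Hoxa5, Hoxa7, Hoxa10, Hoxa11 and the brighter Hoxa9 probe set lie above 0, and the other 7 include 0.

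Of the 5 probe sets of Hoxa2, Hoxa3 and Hoxa4, 4 stood under the 20th percentile of every array. Hoxa2 (probe set 1419602_at), the selector gene of the second pharyngeal arch, read 4.36 and 4.56 in Cre-GFP 1 and 2, against 4.24 and 4.28 in control 1 and 2. Its groups did not overlap, but the gap was 0.076 and the log2 difference 0.20 (-0.064 to 0.46), or 0.096 without Cre-GFP 2 and 0.30 without Cre-GFP 1. It stood between the 12.3rd and 17.7th percentile of the arrays.

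Hoxa3, needed for the thymus and parathyroid, read 6.04 and 5.88 in Cre-GFP 1 and 2 on its brighter probe set, 1452421_at, against 6.04 and 5.97 in control 1 and 2, and the groups overlapped. Its second probe set, 1427433_s_at, read 4.25 and 4.23 in Cre-GFP, against 4.09 and 4.02 in control, without overlap. The log2 differences were -0.045 (-0.35 to 0.26) and 0.19 (-0.025 to 0.41). Without Cre-GFP 2 the first was 0.033.

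Hoxa4, a gene of neck vertebra patterning, had both probe sets, 1427354_at and 1420226_x_at, between the 4.94th and 7.53rd percentile of the arrays. They read 3.91 and 3.76, and 3.80 and 3.67, in Cre-GFP 1 and 2, against 3.89 and 3.81, and 3.74 and 3.68, in control 1 and 2. The groups overlapped on both, and the differences of -0.013 and 0.023 turned sign when single arrays were left out. In all, 4 of the 12 HoxA probe sets, those of Hoxa2 and Hoxa4 and the second of Hoxa3, stood under the 20th percentile on every array. For these no difference was detectable at this signal.

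Probe sets of a gene were compared through their log2 ratio within each array, which cancels the arrays' overall brightness and asks only whether both gave the same group difference. The second Hoxa9 probe set, 1421579_at, read 8.76 and 8.47 in Cre-GFP 1 and 2, against 8.28 and 8.04 in control 1 and 2. Its log2 difference was 0.45 (-0.018 to 0.92, adjusted p = 1). Both Hoxa9 probe sets were thus higher on both Cre-GFP arrays than on either control array, 2.39-fold and 1.37-fold. The log2 ratio of the brighter to the second probe set was 3.55 and 4.06 in Cre-GFP 1 and 2, against 3.05 and 2.95 in control 1 and 2, without overlap.

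In the fit over all 12855 same-gene pairs of probe sets, the Hoxa9 ratio differed by 0.80 (0.29 to 1.31, limma unadjusted p = 0.0082, adjusted p = 1). Leaving out Cre-GFP 2 gave 0.55, and leaving out Cre-GFP 1 gave 1.06. The median size of such a difference over all pairs was 0.13, and 1.09% of pairs had a larger one. The pair of Hoxa3 differed by -0.24 (-0.58 to 0.11) and that of Hoxa4 by -0.037 (-0.32 to 0.25). At an unadjusted p under 0.05, 1 of the 3 HoxA pairs was called, against 3.89% of all pairs, and adjusted over all pairs 0 of 3 and 0 of 12855 (0%).

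**Figure D3:**
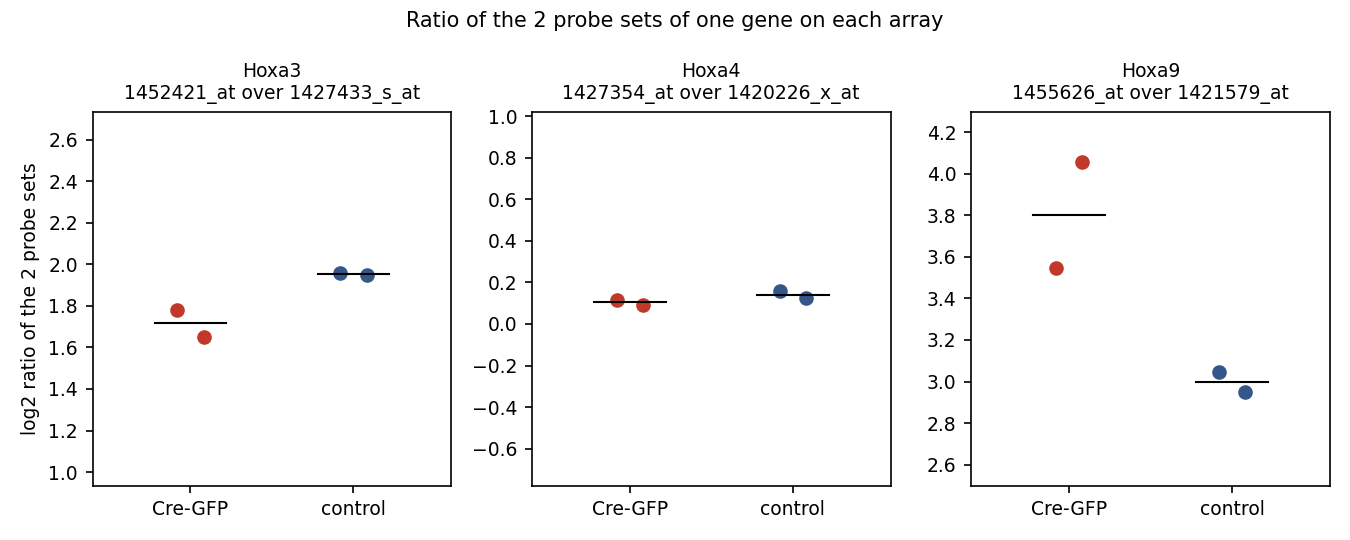
Log2 ratio of the brighter to the second probe set of Hoxa3, Hoxa4 and Hoxa9 (y axis) on each Cre-GFP and control array, with the group mean as a line; every panel spans the same range. For Hoxa9 the Cre-GFP arrays, at 3.55 and 4.06, lie above the control arrays, at 3.05 and 2.95.

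Along the chromosome, the largest step in the group difference lay between Hoxa4 and Hoxa5. Each gene was taken by its brightest probe set, and the group difference of each gene was set against that of the measured gene next to it in the RefSeq table (12347 neighbouring pairs over the genome). From Hoxa4 to Hoxa5 the log2 difference was higher by 1.67 (1.26 to 2.09, limma unadjusted p = 2.9e-05, adjusted p = 0.12), the third smallest p of all neighbouring pairs. The step was 1.61 to 1.74 with single arrays left out. When a Cre-GFP array was left out, the limma adjusted p was 0.28 (array 1) and 0.46 (array 2), and when a control array was left out, 0.0030 (array 1) and 0.019 (array 2). Both Hoxa4 probe sets stood under the 20th percentile of every array, so the Hoxa4 side of this step was read in the dim range.

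Beyond Hoxa5 the difference by brightest probe set was uneven, and probe set choice mattered. The 2 Hoxa9 probe sets differed by 0.80 in their group difference, more than the steps from Hoxa7 to Hoxa9 and from Hoxa10 to Hoxa11. The second Hoxa9 probe set, at 0.45, lay below the 0.59 of Hoxa7. Hoxa6, which lies between Hoxa5 and Hoxa7, was not measured. From Hoxa5 to Hoxa7 the difference was lower by 1.07 (step -1.07, -1.59 to -0.55, limma unadjusted p = 0.0018). From Hoxa7 to Hoxa9 it was higher by 0.67 (0.031 to 1.3, limma unadjusted p = 0.042). The Hoxa7 to Hoxa9 step was 0.26 where the mean of each gene's probe sets was used and 0.42 without Cre-GFP 2, and its unadjusted p in limma was 0.030 to 0.25 with single arrays left out. Hoxa9 and Hoxa10 differed by -0.21 (-0.84 to 0.41), which turned to 0.021 without control 1 and 0.19 with the mean of probe sets. From Hoxa10 to Hoxa11 the step was -0.73 (-1.43 to -0.030, unadjusted p = 0.043), or -0.34 without control 2 and -1.12 without control 1, and from Hoxa11 to Hoxa11os -0.56 (-1.04 to -0.081, unadjusted p = 0.028), or -0.33 without control 2. The highest unadjusted p in limma with single arrays left out was 0.22 for the first of these and 0.15 for the second.

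Steps at the ends of the cluster lay between -0.24 and 0.22. From Hoxa2 to Hoxa3 it was -0.24, and -0.12 with the mean of probe sets. Leaving out a Cre-GFP array gave -0.42 (array 1) and -0.063 (array 2). The step from Hoxa3 to Hoxa4 was 0.032 and that from Hoxa11os to Hoxa13 -0.020, or -0.33 without control 2 and 0.29 without control 1. From the flanking gene Skap2 to Hoxa2 it was 0.068 and from Hoxa13 to the flanking homeobox gene Evx1 0.22. Of the 9 pairs within the cluster, 5 had an unadjusted p under 0.05, against 5.91% of all neighbouring pairs, and 0 passed after adjustment over all pairs, against 0.0081% of them. Neighbouring pairs share genes, so these steps are not independent. Without control 1, 2 of the 9 passed after adjustment, those from Hoxa4 to Hoxa5 and from Hoxa10 to Hoxa11, as did 218 of all pairs, and without control 2, 1 did, as did 42 of all pairs.

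**Figure D4:**
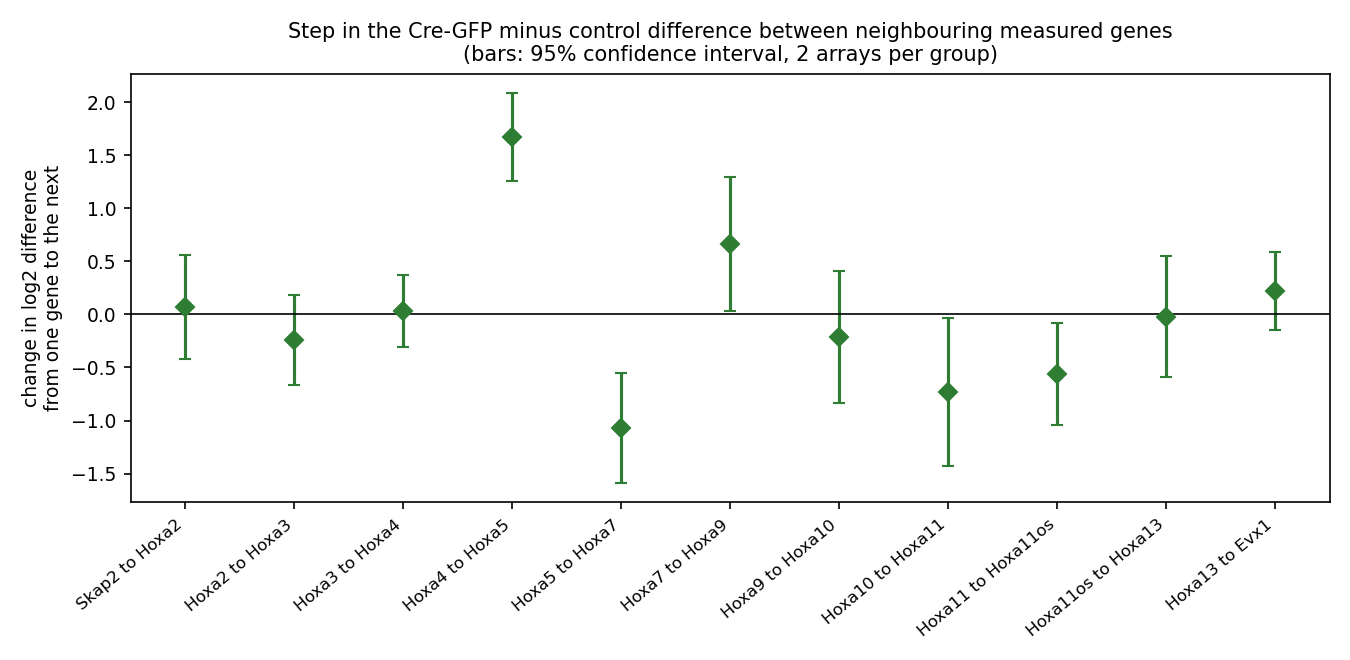
Change in the Cre-GFP minus control log2 difference from one measured gene to the next along chromosome 6 (y axis), from Skap2 to Evx1, with 95% confidence intervals from limma. The step of 1.67 from Hoxa4 to Hoxa5 is the largest, and is followed by one of -1.07 from Hoxa5 to Hoxa7.

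Other genes of the pathway were each taken by their brightest probe set. Of all 12394 genes taken so, 2.18% were higher and 2.38% lower in Cre-GFP at an unadjusted p under 0.05, and the counts for the lists below are read against these shares. The Hox-binding cofactors of the TALE homeodomain family were measured for 8 of 9 listed genes. Meis1 read 7.69 and 7.54 in Cre-GFP 1 and 2, against 5.84 and 5.94 in control 1 and 2, and the groups did not overlap. Its log2 difference was 1.73 (1.39 to 2.07, adjusted p = 0.19). Pknox1, a relative of Meis, differed by 0.36 (0.057 to 0.67, adjusted p = 0.93), with 0.12 on its other probe set. At an unadjusted p under 0.05, 2 of the 8 were higher (2.18% of all genes) and 0 lower (2.38%), their median was -0.045, and 0 passed after adjustment. Of genes listed as reported Hoxa9 targets, which also hold Meis1, 3 of 12 were higher, against 2.18% of all genes, and 1 lower, against 2.38%, with a median of 0.027. Among them Lmo2, a bridging factor of blood transcription complexes, differed by 1.65 (0.96 to 2.34, adjusted p = 0.43).

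Of 28 HoxB, HoxC and HoxD genes listed, 22 were measured, 0 reached an unadjusted p under 0.05 in either direction, and 7 stood under the 20th percentile on all arrays. Their median difference was -0.025, against 0.00 over all 12394 genes, and the smallest p belonged to Hoxd10 (-0.15, -0.39 to 0.083) and Hoxc8 (-0.14, -0.37 to 0.089). Of the genes beside the cluster, 5 of 11 listed were measured, none at an unadjusted p under 0.05, with Hibadh, an enzyme of valine breakdown, at -0.34 (-0.88 to 0.19) and Tax1bp1, an autophagy receptor, at -0.36 (-1.05 to 0.32).

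Among regulators of Hox genes, 0 of 21 measured members of the MLL, elongation and DOT1L list were higher, against 2.18% of all genes, and 1 lower, against 2.38%, at an unadjusted p under 0.05 (median 0.064). A count of 1 in 21 is near the share of all genes. Dot1l itself was among the listed genes that were not measured. The gene with the smallest p was Psip1, which tethers MLL to chromatin, with 8.74 and 9.03 in Cre-GFP 1 and 2, against 9.80 and 9.53 in control 1 and 2 (-0.78, -1.26 to -0.30, adjusted p = 0.73), and -0.21 on its other probe set. Mllt3, a reader of histone acylation, came next at -0.20 (-0.50 to 0.11). The fusion's parts were also in that list: Kmt2a differed by -0.18 ± 0.26 and Aff1 by -0.26 ± 0.27 (SE, n = 2 each). Whether their probe sets read the fusion construct was not tested. Of 21 measured Polycomb genes, which keep Hox genes silent, 0 were higher, against 2.18% of all genes, and 1 lower, against 2.38% (median -0.028), a count again near the share of all genes. The smallest p belonged to Ezh2, the methyltransferase of Polycomb complex 2, with 10.16 and 10.05 in Cre-GFP 1 and 2, against 10.68 and 10.94 in control 1 and 2 (-0.70, -1.12 to -0.28, adjusted p = 0.73). Ring1, a ubiquitin ligase of Polycomb complex 1, came next at -0.25 (-0.67 to 0.17).

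The genes closest in pattern were found by Euclidean distance between log2 values centred on each gene's mean over the 4 arrays, among 6197 genes at or above the median. Closest to Hoxa5 were Zcchc7 (distance 0.27), Hexa (0.42) and Ifitm3 (0.50). Closest to Hoxa9 were Cst7 (0.19), Satb1 (0.24) and Hexa (0.25), and to Hoxa10 Ifitm1 (0.23), Cst7 (0.25) and Satb1 (0.27). Among the HoxA genes themselves, Hoxa9 and Hoxa10 lay 0.41 apart, Hoxa5 and Hoxa9 0.52, and Hoxa5 and Hoxa13 1.93. These distances rest on 4 arrays, and any gene with a like group difference and a like spread comes close.

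B lineage markers read lower on balance and myeloid markers higher in Cre-GFP, and 0 markers of any list passed after adjustment over all probe sets with limma. Shares of all genes for these counts were again 2.18% higher and 2.38% lower at an unadjusted p under 0.05, and 15.2% higher and 14.9% lower without overlap between the groups. The summed intensity of 14 measured pan-leukocyte and B lineage markers was 52859 to 57480 in Cre-GFP and 64885 to 72164 in control, with 0 higher and 3 lower at an unadjusted p under 0.05, and none stood under the 20th percentile on all arrays, so the labelled lineage was read in both groups. Their median log2 difference was -0.22, with 10 of 14 below 0 and 8 of 14 lower without overlap. The B cell receptor components Cd79b and Cd79a were at -1.70 (-2.77 to -0.64) and -0.80 (-1.32 to -0.28). The sum over 16 myeloid markers was 5792 to 5848 in Cre-GFP, against 2277 in control 1 and 6410 in control 2. The groups thus overlapped in this sum, with control 2 above both Cre-GFP arrays. Of these 16 markers, 4 were higher and 0 lower at an unadjusted p under 0.05. Their median log2 difference was 0.52, with 13 of 16 above 0 and 6 of 16 higher without overlap. The HoxA median of 0.26 was taken over all 12 probe sets and not 1 per gene, so these medians are not directly comparable. The smallest p belonged to Mpo, a granule enzyme of early myeloid cells (1.25, 0.88 to 1.62, adjusted p = 0.24), and the granule protease Ctsg (0.99, 0.61 to 1.38, adjusted p = 0.40). Early progenitor markers (8 measured) summed to 1043 to 1334 in Cre-GFP and 1061 to 1163 in control, with 0 higher and 1, Procr, lower (-0.32, -0.58 to -0.062), and Flt3 at 0.16 (-0.23 to 0.55). Stroma and endothelium markers (12 measured, 4 of them under the 20th percentile on all arrays) summed to 728 to 792 in Cre-GFP and 740 to 754 in control, T and NK markers (9 measured, 3 under it) to 1433 to 1504 in Cre-GFP and 1575 to 1720 in control, and erythroid and megakaryocyte markers (7 measured, 1 under it) to 466 to 499 in Cre-GFP and 473 to 474 in control, with 0 of these at an unadjusted p under 0.05. The part of B lineage and myeloid markers in the HoxA differences was not tested.

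**Figure D5:**
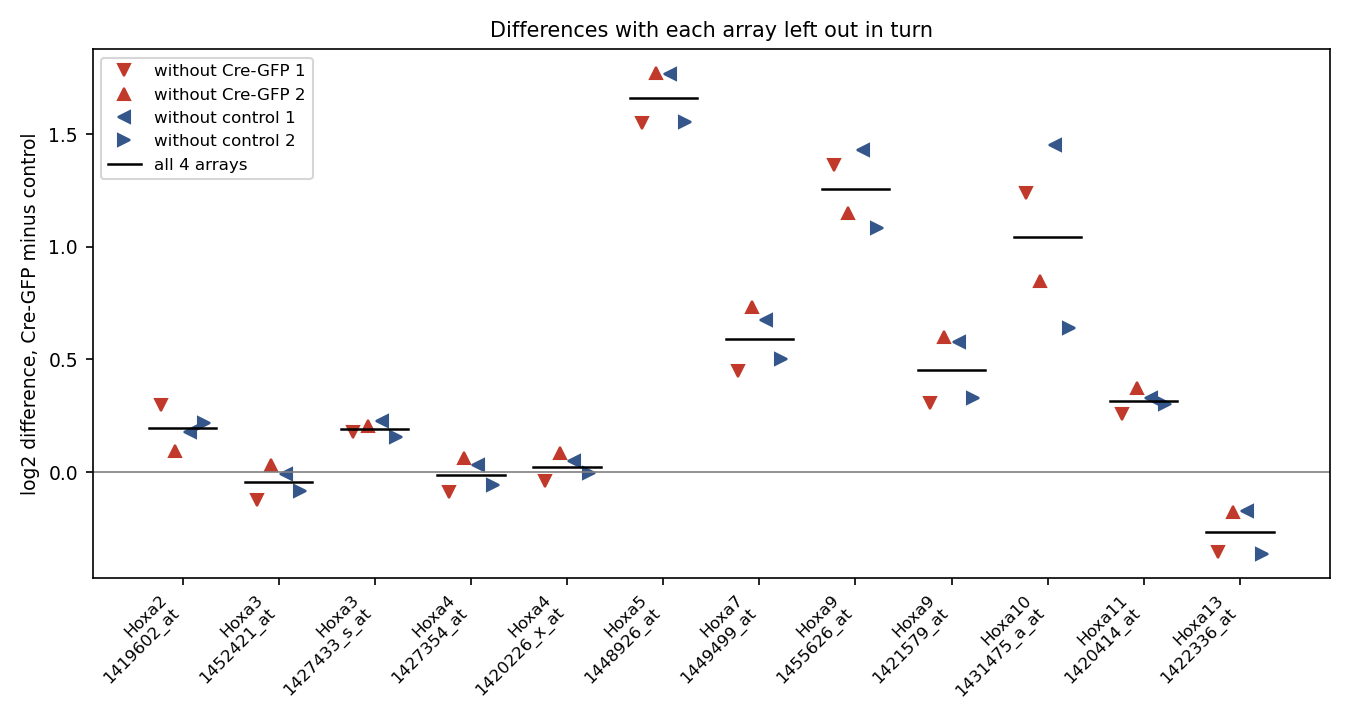
Log2 difference (Cre-GFP minus control, y axis) of each HoxA probe set with all 4 arrays (line) and with each array left out in turn (triangles). Hoxa5 stays between 1.55 and 1.77 and the brighter Hoxa9 probe set between 1.08 and 1.43, while Hoxa10 runs from 0.64 to 1.45.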

How the data were processed

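The authors deposited 1 table of probe set intensity values for the 4 arrays, on a linear scale, made with RMA per the submitters' processing notes, with no version stated there. As usually run, RMA subtracts background, forces all arrays onto one distribution and merges a probe set's probes; the settings used are not recorded. A change common to most genes cannot then appear, and differences in dim probe sets come out small. Array medians were 85.1 to 87.7. The deposited intensities were taken to log2 and not normalized again. Of 22690 probe sets, 20393 had 1 gene symbol in the platform annotation, 691 several and 1606 none. By gene number 20364 matched RefSeq (GRCm38.p6), and 0 symbols were updated; gene order came from the same table. Cross-hybridization and scan batches were not examined.

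Groups were compared over all probe sets with limma 3.58.1 in R 4.3.3 (lmFit, eBayes with an intensity trend, two-sided, Benjamini-Hochberg threshold 0.05). The same fit was run on log2 ratios of same-gene probe set pairs and of neighbouring genes, with the pair's mean intensity as the trend. The fits were tested on simulated data with known differences and independent noise. That simulation held no batch or replicate pairing, so it cannot tell how the fits behave where arrays share one. Named genes were all HoxA probe sets, the genes past the threshold or otherwise the 2 smallest p per list (those of the T and NK, erythroid and stroma lists are not printed), and the 3 nearest genes by distance; Hoxa11os, Skap2, Evx1, Kmt2a and Aff1 were added as neighbours and as parts of the fusion. Members and lists were chosen with earlier results of these data known. Alternatives were each array left out, the replicate number as a block, dim values raised to the 20th percentile, and the dimmest 40% left out. Others were scaling to the 75th percentile, other variance priors, and 1 probe set or the mean per gene. A further one left out probe sets with the suffix _s_at, _x_at or _a_at.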

Additional observations from a re-analysis of the deposited data

How the results depend on the processing

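In limma, 0 of the HoxA probe sets passed over all probe sets under every alternative run. At an unadjusted p under 0.05 the number higher in Cre-GFP was 5, and 3 to 4 with single arrays left out, 6 with the replicate number as a block or without the intensity trend, 4 of 6 with the dimmest 40% left out, 4 of 9 with shared probe sets left out, and 5 under the others. The number lower was 0, and 1 with the block, that of Hoxa13 (-0.27, unadjusted p = 0.043). With the block, 788 of all probe sets were higher at that level, against 482 without it. The 2 replicate numbers could not be shown to pair the arrays: deviations of same-numbered arrays correlated at 0.36, with only 2 pairs. Whole arrays of the same number correlated at 0.9928 (replicate 1) and 0.9909 (replicate 2), and arrays of 1 group at 0.9919 (Cre-GFP) and 0.9903 (control). Cre-GFP 1 and control 2 correlated at 0.9871, and Cre-GFP 2 and control 1 at 0.9903. Arrays were thus no less alike by number than by group, and a shared batch was not tested. With the replicate block, 1 of the 9 neighbouring pairs passed, from Hoxa4 to Hoxa5 (1.67, adjusted p = 0.038), against 0 without it, and 0 to 2 passed with single arrays left out. The cause was not tested. Over all probe sets, 25 passed without control 1 and 1 without control 2, against 0 with all arrays; over all same-gene pairs 25, 4 and, with the block, 26; over all neighbouring pairs 218, 42 and 12.

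Small differences turned sign. The brighter Hoxa3 probe set ranged from -0.12 to 0.033 with single arrays left out and was 0.073 as the mean of probe sets. The Hoxa4 probe sets ranged from -0.090 to 0.063 and from -0.039 to 0.086, and the gene was at 0.0050 as a mean. The steps from Hoxa9 to Hoxa10 (-0.44 to 0.021, and 0.19 as a mean), from Hoxa11os to Hoxa13 (-0.33 to 0.29) and from Hoxa3 to Hoxa4 (-0.068 as a mean) also turned. The 4 dimmest HoxA probe sets and the pairs and neighbours that use them have no value once dim values are raised. The number of arrays, and the low signal of Hoxa2, Hoxa4 and the second Hoxa3 probe set, limit what could be seen.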
